A study of Mus musculus with 14 samples.

Results

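The members described here are the tRNA genes of the mouse, and the measurement is whether a transcription factor peak was centred at each of them. All 425 genes annotated as tRNA in RefSeq (GRCm38.p6) were taken, out of 49635 annotated genes on the chromosomes and the mitochondrial genome. A tRNA gene was scored as bound in a peak list when the centre of a peak lay inside the gene or within 500 bp of either end. The peaks came from ChIP-seq of blood cells formed in culture from mouse embryonic stem cells of strain 129, in which the cells pass through 5 sequential stages. Mesoderm (MES) was sorted as Bry.GFP+, FLK1- cells and hemangioblast (HB) as Bry.GFP+, FLK1+ cells, where Bry.GFP is a reporter driven by the Brachyury gene. Hemogenic endothelium (HE) was Bry.GFP+ and Tie2+/Ckit+/CD41-, hematopoietic progenitors (HP) were CD41+ and macrophages (MAC) were CD11b+. C/EBPβ, a basic leucine zipper factor of the myeloid lineage, was precipitated at all 5 stages with the same antibody, and the other lists were of GATA1, GATA2, GFI1B, RUNX1 and PU.1 in HP, of GATA2 in HB, of ELK4 in MES and of RUNX1 and PU.1 in MAC. Each of the 14 combinations of factor and stage had 1 list, and without replicates no difference between lists has an error beyond counting. Because HE cells were scarce, their immunoprecipitation contained a carrier of recombinant histone and mouse mRNA, and the carrier and the HE stage cannot be told apart. Peaks were called against the input library of each stage with a threshold that was set by eye for each list, strictest for HE and loosest for MAC among the C/EBPβ lists, so that list length is not an amount of binding.

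tRNA genes are transcribed by RNA polymerase III from a promoter inside the gene. The factor TFIIIC recognises the A box and the B box within the transcribed sequence, places TFIIIB just upstream of the start, and transcription stops at a run of T after the gene. Each tRNA carries 1 amino acid and reads codons through its anticodon, and most anticodons are served by several gene copies, many of them in clusters. C/EBPβ is known for binding enhancers and promoters of genes read by RNA polymerase II.

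Of the 425 genes, 403 were nuclear and 22 mitochondrial. The nuclear genes stood for 20 amino acids and 48 anticodons, were 70 to 107 bp long and had 221 distinct sequences, and 22 of them carried an intron. When neighbours at most 100 kb apart were joined, they formed clusters of very unequal size, as 94 of 127 clusters held 1 gene while 13 clusters of 5 or more genes held 260. The sequences below are 5 genes bound at all stages, n-TGtcc6, bound at all but MES, and 3 genes of the anticodons Asn-GTT, Ser-GCT and Ile-TAT found in no C/EBPβ list. Capitals mark the core of the A box (TNGCNNAGT, near the start) and of the B box (GTTCNANNC, near the end), searched on the sense strand of each gene, and sequences and positions are those of RefSeq GRCm38.p6. The first 5 genes were in all 5 C/EBPβ lists, n-TGtcc6 was in 4, and the last 3 were in none. Of the 32-base words in the 200-bp flanks of the last 3, 67.2%, 53.8% and 74.6% occur once in the genome, against 86.1% to 100% for the 6 bound genes.
n-TNgtt8 (Asn-GTT, chr11:97702449-97702522, minus strand): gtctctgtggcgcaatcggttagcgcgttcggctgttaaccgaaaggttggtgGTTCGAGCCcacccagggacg
n-TPtgg7 (Pro-TGG, chr3:51358354-51358425, plus strand): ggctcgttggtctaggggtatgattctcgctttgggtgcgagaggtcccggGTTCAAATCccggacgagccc
n-TFgaa3 (Phe-GAA, chr10:80248964-80249036, minus strand): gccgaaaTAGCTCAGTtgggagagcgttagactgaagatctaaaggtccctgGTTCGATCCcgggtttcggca
n-TIaat17 (Ile-TAT, chr17:83861944-83862036, plus strand): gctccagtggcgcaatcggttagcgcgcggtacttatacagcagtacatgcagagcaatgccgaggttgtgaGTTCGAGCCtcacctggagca
n-TSgct7 (Ser-GCT, chr2:119046750-119046831, minus strand): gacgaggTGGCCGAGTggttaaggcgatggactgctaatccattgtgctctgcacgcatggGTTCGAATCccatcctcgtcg
n-TGtcc6 (Gly-TCC, chr11:69041278-69041349, minus strand): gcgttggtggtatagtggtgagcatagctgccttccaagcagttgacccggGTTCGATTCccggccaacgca
n-TNgtt3 (Asn-GTT, chr1:188941406-188941479, plus strand): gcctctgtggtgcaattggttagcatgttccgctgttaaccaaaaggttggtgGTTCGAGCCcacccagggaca
n-TSgct1 (Ser-GCT, chr1:182056008-182056089, plus strand): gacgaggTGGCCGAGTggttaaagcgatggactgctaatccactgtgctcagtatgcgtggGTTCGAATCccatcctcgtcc
n-TIaat13 (Ile-TAT, chr1:153458664-153458736, plus strand): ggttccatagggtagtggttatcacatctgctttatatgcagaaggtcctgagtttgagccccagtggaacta

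The B box core was present in 92.1% of the nuclear tRNA genes and the A box core in 29.0%, against 0.886% and 1.20% of the last 72 bases of 32851 RefSeq promoters. Only exact matches to these strings were counted, so a gene without a core may still hold a variant of the box. Of the 3 unbound genes shown, n-TIaat13 had neither core, while n-TNgtt3 kept the B box core and n-TSgct1 had both. The gene n-TGtcc1, also in no C/EBPβ list, has the same sequence as n-TGtcc6.

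C/EBPβ lists held many tRNA genes at the middle stages and few in mesoderm. In HE the C/EBPβ list marked 141 of 425 tRNA genes, or 33.2% (exact Clopper-Pearson 95% interval 28.7 to 37.9), beside 0.110% of 21774 protein-coding genes with a peak centre within 500 bp of a transcript start. In HP it marked 227 genes, or 53.4% (48.5 to 58.2), beside 2.65% of coding genes. In HB it marked 90 genes, or 21.2% (17.4 to 25.4), beside 0.749% of coding genes. In MES it marked 12 genes, or 2.82% (1.47 to 4.88), beside 1.22%. In MAC it marked 103 genes, or 24.2% (20.2 to 28.6), beside 25.3% of coding genes, and the interval held that background. Over the 242 tRNA genes with wholly unique flanks, described further on, the MAC share was 37.2% (31.1 to 43.6), but coding genes were not filtered in this way, so that these shares are not alike. The C/EBPβ lists were of very unequal length, with MES at 1177 peaks, HB at 715, HE at 132, HP at 2716 and MAC at 55471, and 107 of the HE peaks (81.1%) lay at tRNA genes, against 9.51% of those of HB, 6.96% of HP, 0.850% of MES and 0.157% of MAC. The low coding share of HE is thus that of a list of which few peaks lie elsewhere. In order the shares ran HP, HE, MAC, HB and MES. The intervals of MAC and HB overlapped, and those of HE and MAC nearly met and overlapped when the window was 1000 bp (31.4 to 40.8 and 26.9 to 35.9) or each peak marked only its nearest gene (21.1 to 29.6 and 16.3 to 24.1). MAC and HB changed places with a window of 200 bp (15.8% and 17.2%). These intervals cover counting error only, and neighbouring tRNA genes share peaks, so genes are not independent. No mitochondrial tRNA gene was in any C/EBPβ list.

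Part of the coding background was itself due to tRNA genes that lie at coding starts. Of the 24 coding genes marked in the HE list, 17 were marked only by a peak that also marked a tRNA gene, and the remaining 7 made up 0.0321% of coding genes. In HP the same held for 25 of 577 coding genes and in HB for 10 of 163. Conversely, 53 of the 403 nuclear tRNA genes lay within 2000 bp of a coding start. Of the other 350, 114 were marked in HE and 188 in HP, or 32.6% and 53.7%. The MES list was different in this respect, since 7 of its 12 tRNA genes lay within 2000 bp of a coding start.

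**Figure D1:**
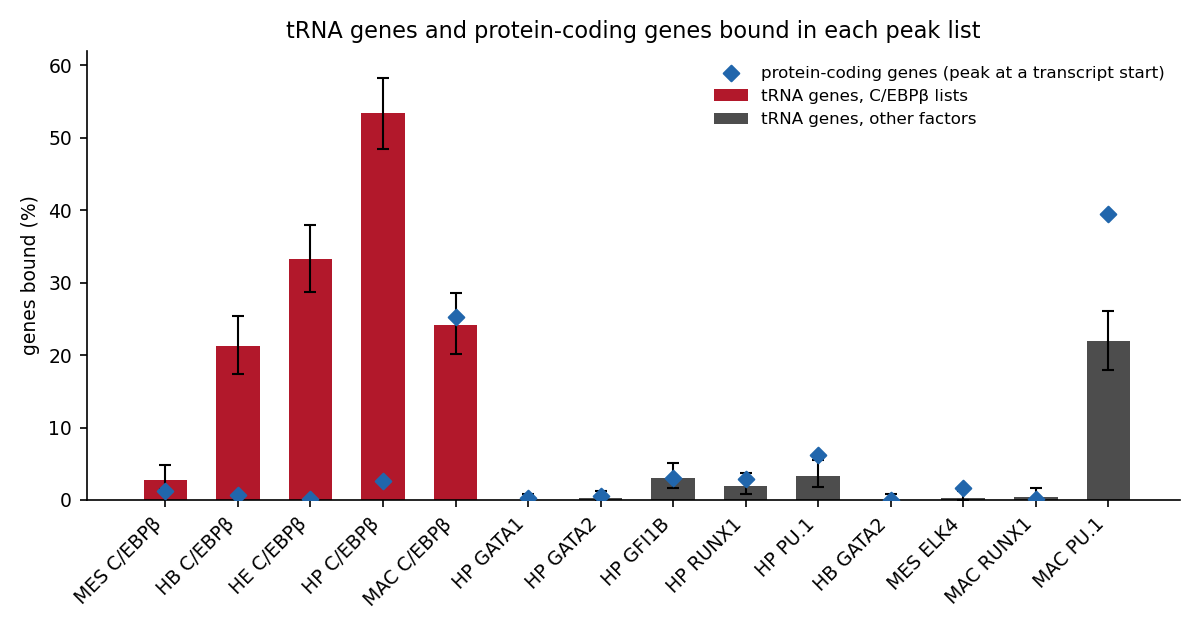
Bars give the percentage of the 425 tRNA genes bound in each of the 14 peak lists, with exact 95% intervals as error bars, and diamonds the percentage of 21774 protein-coding genes with a peak at a transcript start. The C/EBPβ bars of HB, HE and HP stand at 21.2%, 33.2% and 53.4%, above diamonds of at most 2.65%, while the 2 lists of MAC with high bars have diamonds of 25.3% and 39.5%.

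The other factors of the HP stage, whose lists share their input library with HP C/EBPβ, marked few tRNA genes. GATA1, a zinc finger factor of erythroid cells, marked 0 of 425 genes, which allows a share of up to 0.864%, beside 0.239% of coding genes. GATA2, its relative in progenitors, marked 1 gene, n-TIaat16, beside 0.482%. RUNX1, which is needed for blood cells to leave the endothelium, marked 8 genes (1.88%, interval 0.816 to 3.68) beside 2.86%. GFI1B, a repressor of the endothelial program, marked 13 genes (3.06%, 1.64 to 5.17) beside 3.03%. PU.1, an ETS factor of myeloid cells, marked 14 genes (3.29%, 1.81 to 5.47) beside 6.19%, and 2 of those were the neighbouring mitochondrial genes TrnT and TrnP. In none of the 5 lists did the interval lie above the coding background. Outside HP, GATA2 in HB marked 0 tRNA genes, which allows up to 0.864%, beside 0.0184% of coding genes, ELK4 in MES marked 1 beside 1.71%, and RUNX1 in MAC marked 2 beside 0.0964%. PU.1 in MAC marked 93 genes (21.9%, 18.0 to 26.1), below the 39.5% of coding genes in that list of 82866 peaks.

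Of the 31 nuclear tRNA genes marked by any of the other HP factors, 23 were also in the HP C/EBPβ list (74.2%, 55.4 to 88.1), and they made up 10.1% of its 227 genes. That list held 56.3% of all nuclear tRNA genes and 76.3% of the 283 whose flanks are at least 90% unique, and the interval held both shares. The genes n-TRtcg5 (Arg-TCG, within the gene Polg) and n-TIaat16 (Ile-TAT, 318 bp from a start of Plekhg2) were each marked by a pair of these factors and by HP C/EBPβ, while n-TMcat13 was marked by GFI1B and RUNX1 without C/EBPβ. In the MAC lists, C/EBPβ and PU.1 shared 41 tRNA genes. These were 39.8% (30.3 to 49.9) of the C/EBPβ genes, beside 23.1% of all nuclear tRNA genes in MAC PU.1. They were 44.1% (33.8 to 54.8) of the PU.1 genes, beside 25.6% of all nuclear tRNA genes in MAC C/EBPβ. Over the 283 genes with flanks at least 90% unique, the shares were 31.1% in MAC PU.1 and 34.6% in MAC C/EBPβ. The intervals held these shares but lay above those of all nuclear genes. Of the 93 genes of MAC PU.1, 81 had been in the HP C/EBPβ list (87.1%, 78.5 to 93.2), beside 56.3% of all nuclear tRNA genes and 78.5% of the 242 with wholly unique flanks.

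Peaks lay closest to the tRNA genes in the HB, HE and HP lists of C/EBPβ. All 107 HE peaks at tRNA genes were centred within 100 bp of a gene, from 22 bp before the start to 94 bp after it, and 58 of them (54.2%) were centred inside the gene. In HB all 68 peaks lay within 100 bp, and in HP 186 of 189 did, with 38.2% and 39.2% centred inside. The rule allowed 500 bp on either side, so this concentration was not set by it. In MES 8 of 10 peaks lay within 100 bp and 2 were centred inside, with a median distance of 43.0 bp. In MAC 53 of 87 peaks (60.9%) lay within 100 bp and 17 (19.5%) lay more than 250 bp away. The 12 GFI1B, 6 RUNX1 and 9 PU.1 peaks of HP at tRNA genes had no centre inside a gene, and their median distances from the gene were 248, 182 and 157 bp, against 6 bp for HP C/EBPβ. For MAC PU.1 the median distance was 214 bp, and 32 of 79 peaks (40.5%) lay more than 250 bp away.

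**Figure D2:**
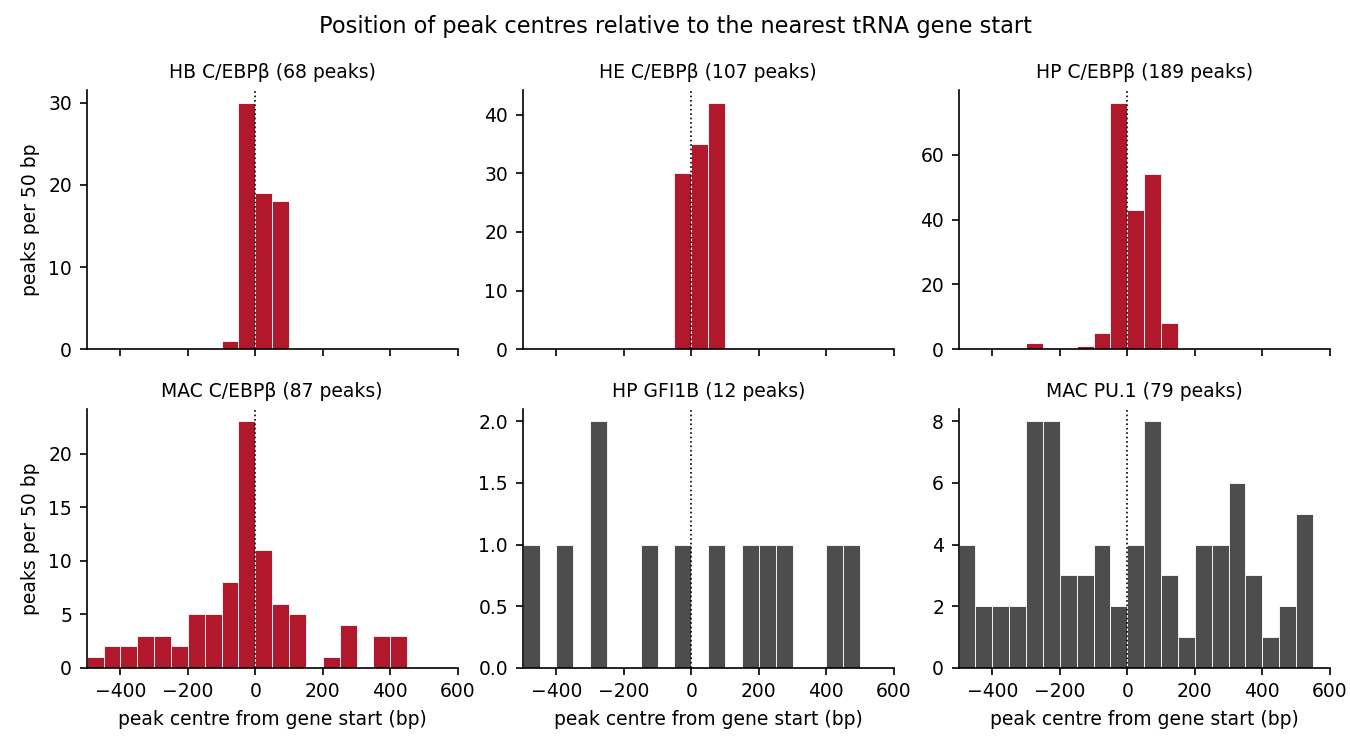
Each panel counts peak centres in steps of 50 bp along the distance from the start of the nearest tRNA gene, in the direction of transcription, with the start as a dotted line. In HB, HE and HP the C/EBPβ centres stand in a narrow band at the gene, 98.4% to 100% of them within 100 bp, whereas the GFI1B and MAC PU.1 centres are spread over the whole window.

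The HB, HE and HP C/EBPβ peaks at tRNA genes also differed from the other peaks of their own lists in the C/EBP sequence. The core TTGCNNAA was searched on both strands of each 400-bp peak, and 300 bases of promoter held it in 10.8% of all RefSeq promoters and in 12.7% of tRNA genes. These promoters are shorter than a peak. The gene with 200 bp on either side held the core for 76 of 403 nuclear tRNA genes (18.9%). In HP it was found in 37 of 189 peaks at tRNA genes (19.6%, 14.2 to 26.0) and in 1700 of 2527 peaks elsewhere (67.3%, 65.4 to 69.1). In HB the shares were 22.1% of 68 and 63.1% of 647, and in HE 19.6% of 107 and 56.0% of 25. In MES the core was in 6 of 10 peaks at tRNA genes and in 716 of 1167 elsewhere, and the MAC shares were 36.8% and 41.9%, with overlapping intervals in both stages.

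Where an HB, HE or HP peak held the core, its position within the peak differed as well. Elsewhere in the genome the nearest core lay within 50 bp of the centre in 1418 of 1700 HP peaks (83.4%, 81.6 to 85.2), in 89.7% of HB peaks and in all 14 HE peaks that held one. At tRNA genes it did so in 9 of 37 HP peaks (24.3%, 11.8 to 41.2), 2 of 15 HB peaks and 4 of 21 HE peaks. The median distance from centre to core was 106 bp at tRNA genes in HP and 15.5 bp elsewhere. In MES the core lay within 50 bp in 3 of 6 peaks at tRNA genes (50.0%, 11.8 to 88.2) and in 81.7% elsewhere. In MAC it did so in 18 of 32 peaks at tRNA genes (56.2%, 37.7 to 73.6) and in 72.1% elsewhere. Among the tRNA genes themselves, the promoter core was found in 17 of 141 bound and 34 of 262 unbound genes of HE, in 30 of 227 and 21 of 176 of HP and in 12 of 90 and 39 of 313 of HB. In MAC it was found in 20.4% of bound and 10.0% of unbound genes, and in MES in 4 of 12 and 47 of 391.

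The promoters of n-TPtgg7 and n-TNgtt8 are shown because both genes were in all 5 lists and hold the core at different distances. Each is the sense strand from 250 bases before to 50 bases after the gene start (RefSeq GRCm38.p6), with the core in capitals.
n-TPtgg7 promoter (chr3:51358104-51358403, plus strand): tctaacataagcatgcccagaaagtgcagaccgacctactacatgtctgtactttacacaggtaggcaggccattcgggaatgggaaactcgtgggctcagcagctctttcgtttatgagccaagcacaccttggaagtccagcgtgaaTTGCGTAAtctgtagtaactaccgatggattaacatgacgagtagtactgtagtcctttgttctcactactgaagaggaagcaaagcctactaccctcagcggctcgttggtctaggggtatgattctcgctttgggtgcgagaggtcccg
n-TNgtt8 promoter (chr11:97702473-97702772, minus strand): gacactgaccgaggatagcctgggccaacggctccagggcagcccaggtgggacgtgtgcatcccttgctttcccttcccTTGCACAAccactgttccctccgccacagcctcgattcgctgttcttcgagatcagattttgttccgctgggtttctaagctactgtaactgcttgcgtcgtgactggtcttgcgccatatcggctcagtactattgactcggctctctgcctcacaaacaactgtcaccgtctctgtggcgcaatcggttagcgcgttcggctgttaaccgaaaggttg

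In n-TPtgg7 the core begins 101 bases before the gene start. The C/EBPβ peak of MES was centred 139 bp before the start, that of HB 100 bp, that of HE 21 bp, that of HP 101 bp and that of MAC 104 bp. The HE centre was thus the one closest to the gene, and the HB, HP and MAC centres lay at the core. In n-TNgtt8 the core begins 170 bases before the start, and the centres lay 68, 14, 10, 53 and 51 bp before the start in MES, HB, HE, HP and MAC. In that gene all 5 centres were nearer to the gene than to the core.

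The HB and HE genes lay mostly within those of HP. Of the 141 genes of HE, 132 were in HP (93.6%, 88.2 to 97.0), and of the 90 genes of HB, 87 were in HP (96.7%, 90.6 to 99.3), beside 56.3% of all nuclear genes and 78.5% of the 242 with wholly unique flanks. HB and HE shared 68 genes, and 66 of these 68 were in HP. The 68 were 75.6% of the HB genes, beside 35.0% of all nuclear genes in HE and 50.4% of those with wholly unique flanks. Of the HE genes they were 48.2%, beside 22.3% and 28.5% in HB. All 12 genes of MES were in MAC. Of the 227 genes of HP, 91 were in MAC (40.1%, 33.7 to 46.8), above the 25.6% of all nuclear genes in MAC but not told apart from the 37.2% of those with wholly unique flanks. They were 88.3% of the MAC genes. Among the HP genes, those that had been in MES, HB or HE were found in MAC in 70 of 153 cases (45.8%, 37.7 to 54.0), and those in no earlier list in 21 of 74 cases (28.4%, 18.5 to 40.1), with overlapping intervals.

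By combination of stages, 156 nuclear genes were in no C/EBPβ list, and 53 were in HP only. A further 40 were in HE and HP, 33 in HB, HE and HP, 25 in HE, HP and MAC, 24 in HB, HE, HP and MAC, and 21 in HP and MAC. Only 9 genes were in all 5 lists, and 9 others were in MAC only. For genes in both HP and MAC the nearest centres of the lists were 85.0 bp apart in the median, and for genes in both HB and HP 24.0 bp.

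The 9 genes in all 5 lists included 4 of Asn-GTT with the same sequence, n-TNgtt6, n-TNgtt7, n-TNgtt8 and n-TNgtt14. The others were n-TPtgg7 (Pro-TGG), n-TFgaa3 (Phe-GAA), n-TSgct7 (Ser-GCT), n-TLtag3 (Leu-TAG) and n-TIaat17, which the annotation assigns to Ile-TAT in spite of its name. At n-TNgtt6 the nearest centre was inside the gene in MES and MAC and 19, 6 and 7 bp away in HB, HE and HP. At n-TNgtt14 (chr5:149229001-149229074) the 5 centres lay 2 to 18 bp from the gene. At n-TIaat17 they lay inside the gene in MES, HE and HP, and 20 and 10 bp away in HB and MAC. At n-TLtag3 (chr11:69124241-69124322) the centre was inside the gene in HE and HP, 18 bp away in HB, and 287 and 254 bp away in MES and MAC. The last gene thus had centres at the gene only in the middle stages. n-TFgaa3 and n-TNgtt7 lie head to head at the start of Ndufs7, and a peak there marks both genes, as n-TNgtt7 had the nearer centre in all 5 lists.

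Of the 26 genes in 4 C/EBPβ lists, n-TRtcg5, n-TIaat16 and n-TGtcc6 were in the most of all 14 lists. n-TRtcg5 (chr7:79466419-79466491) was in 8 of the 14 lists, more than any other tRNA gene, and lies 106 bp from a start of Polg, the mitochondrial DNA polymerase. Its C/EBPβ centres lay 0, 11 and 9 bp from the gene in HB, HE and HP, and its MAC C/EBPβ, HP RUNX1, HP PU.1, MAC RUNX1 and MAC PU.1 centres 157 to 270 bp away. At this gene the HB, HE and HP centres of C/EBPβ thus lay nearer to the gene than any centre of another factor.

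Only 8 tRNA genes were in HB or HE but in neither HP nor MAC. They were n-THgtg5, n-TRcct1, n-TIaat4, n-TTcgt3 and n-TRcct5 in HE only, n-TAagc14 in HB only, and n-TYgta2 and n-TMcat11 in both. Of the 7 in the HE list, 4 had a centre inside the gene, n-TRcct1 and n-TMcat11 had it 6 bp away, and n-TYgta2 had it 380 bp away. Both n-TRcct1 (chr6:38533931-38534003) and n-TRcct5 (chr11:115412981-115413053) are Arg-CCT genes. n-TYgta2 and n-TAagc14 are neighbours on chr3, and HP PU.1 had a centre 15 bp from n-TAagc14.

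Every amino acid had bound genes in HB, HE, HP and MAC, but in unequal numbers. In HP the bound genes were 9 of 10 for Tyr, 6 of 7 for Phe, 13 of 16 for Pro, 17 of 22 for Ser, 13 of 17 for Thr, 18 of 24 for Arg and 12 of 16 for Met, and at the low end 4 of 11 for His and 4 of 57 for Cys. In HE the highest shares were those of Pro (10 of 16), Tyr (6 of 10), Arg (14 of 24) and Leu (14 of 25), and the lowest were those of Cys (3 of 57), His (2 of 11), Gln (3 of 16) and Glu (4 of 20). In HB, Tyr stood first with 7 of 10. The interval held the share of all nuclear genes for 19 of 20 amino acids in HP, all but Cys, for 17 in HE, all but Arg, Cys and Pro, and for 18 in HB, all but Cys and Tyr. That share includes genes with repeated flanks. Flanks of at least 90% unique sequence were found for 23 of 24 Arg and 14 of 16 Pro genes. Over all genes with such flanks the HE share was 47.0%. It lay within the HE intervals of Arg (36.6 to 77.9) and Pro (35.4 to 84.8) and above those of Cys, Gln and Glu. In HB the interval of Tyr (34.8 to 93.3) lay above the 29.0% of such genes. With so few genes for each amino acid, counting error alone is wide, and neighbours in these orders were not told apart.

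From HP to MAC the share of nuclear genes bound went from 56.3% to 25.6%, and the counts by amino acid are given as a description. Ala had 18 of 33 genes in HP and 2 in MAC, Asp 10 of 16 and 1, Met 12 of 16 and 2, and Thr 13 of 17 and 2. Asn had 9 of 13 in HP and 8 in MAC, His 4 of 11 in both, Trp 5 of 8 and 4, Pro 13 of 16 and 9, and Arg 18 of 24 and 12. In MAC the exact interval held 25.6% for 15 of 20 amino acids, and lay below it for Ala and Cys and above it for Arg, Asn and Pro. Over genes with flanks of at least 90% unique sequence the MAC share was 34.6%. The intervals of Arg (29.1 to 70.9), Asn (31.6 to 86.1) and Pro (29.9 to 80.2) held that share, and those of Ala, Asp and Cys lay below it. In MES the 12 bound genes were of 8 amino acids, and 4 of them were for Asn.

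**Figure D3:**
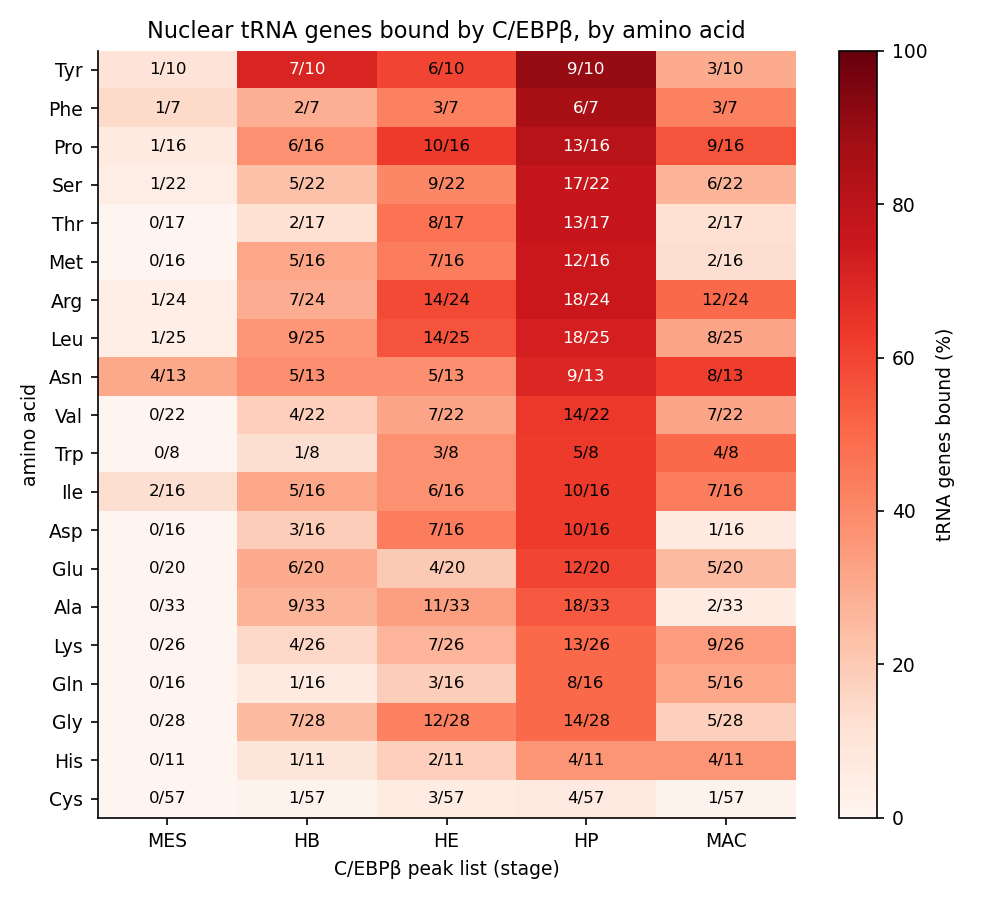
Rows are amino acids ordered by their share in HP, columns are the C/EBPβ lists, colour is the percentage of nuclear tRNA genes bound and each cell prints bound over annotated genes. Tyr with 9 of 10 stands at the top of the HP column and Cys with 4 of 57 at the bottom, and in the MAC column Ala (2 of 33) and Asp (1 of 16) are pale while Asn (8 of 13) is not.

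By anticodon, the MES list had a bound gene for 8 of 48 anticodons, the HB list for 38, the HE list for 44, the HP list for 46 and the MAC list for 41. The 4 anticodons without a bound gene in HE were Glu-TTC, Gly-ACC, His-ATG and Ser-GGA, of which the last 3 had 1 gene each. Of the 8 genes of Glu-TTC the HB, HE, HP and MAC lists held 2, 0, 6 and 3, while Glu-CTC had 4 of 12 in HE. All genes were bound in HE for Leu-CAA (4 genes) and Thr-TGT (4 genes), and both were also complete in HP. Such counts include genes marked through a neighbour, since 73 of the 107 HE peaks marked only 1 gene and the others marked more. In HE n-TTtgt3 (Thr-TGT) was nearest to no peak centre and was marked by the peak nearest to n-TPagg4 (Pro-AGG). In HP n-TLcaa3 (Leu-CAA) was likewise marked by the peak nearest to n-TEctc10 (Glu-CTC). Thr-TGT had 0 genes in HB and 1 in MAC. In HP 9 anticodons of 3 or more genes were complete, namely Arg-ACG, Arg-CCG, Leu-AAG, Leu-CAA, Leu-TAG, Pro-CGG, Ser-AGA, Ser-TGA and Thr-TGT. Arg-ACG and Pro-CGG were complete in MAC too, with 6 and 3 genes.

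Within an amino acid, the counts of some anticodons differed by stage, but they rest on few genes and the differences were not tested. Of the 5 genes of Arg-CCT the HB, HE, HP and MAC lists held 0, 4, 2 and 0, whereas of the 6 of Arg-ACG they held 3, 4, 6 and 6. In HP the Arg-CCT gene n-TRcct3 was nearest to no peak centre and was marked by the peak nearest to n-TRtcg4 (Arg-TCG). Ala-AGC had 11 of 13 in HP, and Ala-TGC 4 of 11 and Ala-CGC 3 of 9, while 12, 5 and 3 of these genes had flanks of at least 90% unique sequence. All 5 Arg-CCT and all 6 Arg-ACG genes had such flanks. For the 11 genes of Val-CAC the 4 counts were 0, 1, 6 and 4, and for the 8 of Val-AAC 2, 4, 6 and 2. The anticodons with the most HE genes were Asp-GTC and Met-CAT, with 7 of 16 each. Met-CAT covers both initiator and elongator tRNA. They were followed by Ala-AGC (6 of 13), Gly-GCC (6 of 14) and Tyr-GTA (6 of 10). No anticodon of 4 or more genes was without a bound gene in every C/EBPβ list.

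Genes whose surroundings occur more than once in the genome were rarely in a list. Reads were kept by the authors only where their position was unique, so the 200-bp flanks of each gene were scored by the share of their 32-base words found once in the genome. Of the 61 nuclear genes with less than 50% unique words, 0 were in any of the 5 C/EBPβ lists, which allows up to 5.87% in each. Of the 242 genes with 100% unique words, the HE list held 122 (50.4%, 43.9 to 56.9), the HP list 190 (78.5%, 72.8 to 83.5) and the MAC list 90 (37.2%, 31.1 to 43.6). Over the 283 genes with at least 90% unique words the HB share was 29.0%, the HE share 47.0%, the HP share 76.3% and the MAC share 34.6%, so that the order of the stages was as before. The part that reads without a unique position had in the unbound genes was not tested.

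**Figure D4:**
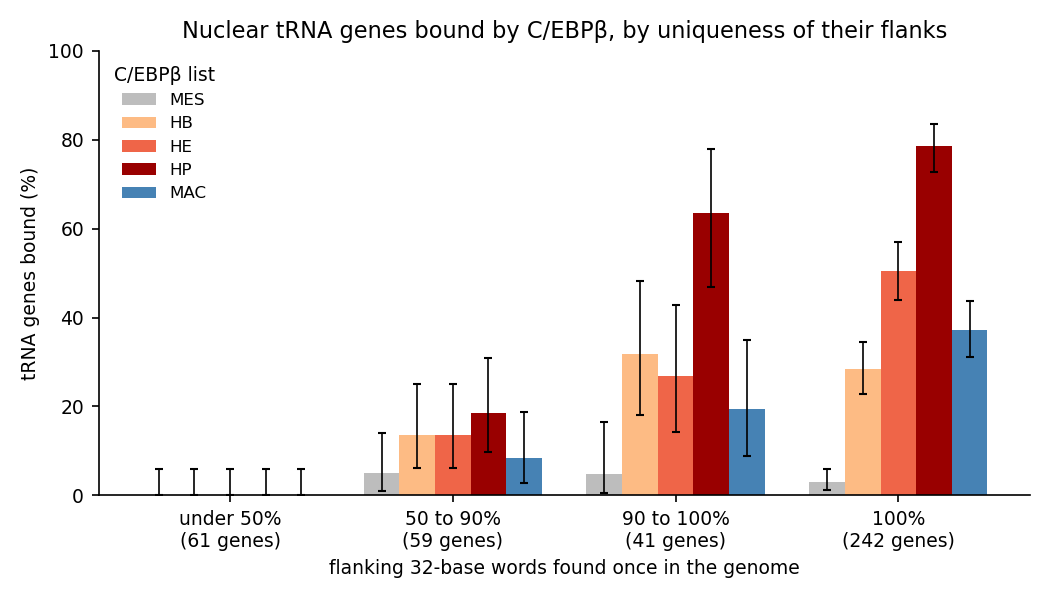
Bars give the percentage of nuclear tRNA genes in each C/EBPβ list for 4 classes of genes by the share of 32-base words in their 200-bp flanks that occur once in the genome, with exact 95% intervals. No bar stands over the 61 genes under 50%, and over the 242 genes at 100% the HP bar reaches 78.5%.

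Copies of identical sequence showed the same relation gene by gene. The 7 copies of Gly-TCC like n-TGtcc6 comprised 4 with wholly unique flanks, all in both HE and HP, and 3 with 0 to 28.1% unique words, in no C/EBPβ list. Of the 9 identical Asn-GTT copies, the 7 in HP had at least 87.0% unique words and the 2 others had 0. Yet unique copies also differed among themselves. Over the 48 sequences with 2 or more copies of unique flanks, 168 genes in all, HE marked every such copy for 8 sequences, none for 8 and some but not all for 32. In HP it was every copy for 32 sequences, none for 3 and some for 13. The Phe-GAA copies with wholly unique flanks, n-TFgaa4, n-TFgaa5, n-TFgaa6 and n-TFgaa7, illustrate this. All of them were in HP, but only n-TFgaa7 was in HE and only n-TFgaa4 in HB. The remaining copy, n-TFgaa3, had 86.1% unique words and was marked only by peaks nearer to n-TNgtt7. Identical promoters inside the gene were thus found both with and without a peak in the same list.

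Clusters differed in the share of their genes that was bound, also where flanks were unique. The largest, 48 Cys-GCA genes in 230 kb of chromosome 6 (chr6:48133937-48363603), had 0 bound genes in any list, including its 12 genes with unique flanks. The 9 Cys genes outside it all had wholly unique flanks, and 4 of them were in HP, namely n-TCgca54, n-TCgca55, n-TCgca56 and n-TCgca57. The largest of the chromosome 13 clusters (45 genes of 15 amino acids, chr13:23270421-23530419) had HB, HE, HP and MAC counts of 7, 16, 38 and 11. The next (32 genes, chr13:21848022-22050767) had 5, 6, 26 and 9, and the third (24 genes, chr13:21160785-21326789) had 8, 12, 22 and 5. In all 3 the HP count was the highest, and the HE counts were 16 beside 38, 6 beside 26 and 12 beside 22.

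The cluster on chromosome 11 (18 genes of 11 amino acids, chr11:69037003-69125248) had HB, HE, HP and MAC counts of 8, 15, 14 and 7, and among clusters of 5 or more genes it was the one with more genes in HE than in HP. On chromosome 1 (25 genes, chr1:171033942-171111515), 10 genes had unique flanks, and all 10 were in HP and 9 in HE, while the other 15 were in neither. On chromosome 3 (25 genes, chr3:96322074-96501518) 12 were in HP and 4 in HE. The 17 genes of the X chromosome, for 6 amino acids, were in no list, and 5 of them had unique flanks. Genes alone in their cluster were bound in 26.6% of cases in HE and 42.6% in HP, and genes in clusters of 5 or more in 32.7% and 58.5%. In MAC the shares were 29 of 94 (30.9%, 21.7 to 41.2) and 52 of 260 (20.0%, 15.3 to 25.4), in HB 19.1% and 18.8%, and in MES 4 genes in each class. With every cluster counted, the intervals overlapped at all 5 stages. The clustered class includes the 48 Cys-GCA genes of chromosome 6 with 0 bound. Without them, clustered genes were in HP in 152 of 212 cases (71.7%, 65.1 to 77.7), and lone genes in 42.6% (32.4 to 53.2). These HP intervals lay apart, while those of the other stages still overlapped. In HE the clustered share was then 40.1% (33.4 to 47.0). Unique flanks were present for 63 of the 94 and 177 of the 260 genes, and their part in these shares was not tested.

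**Figure D5:**
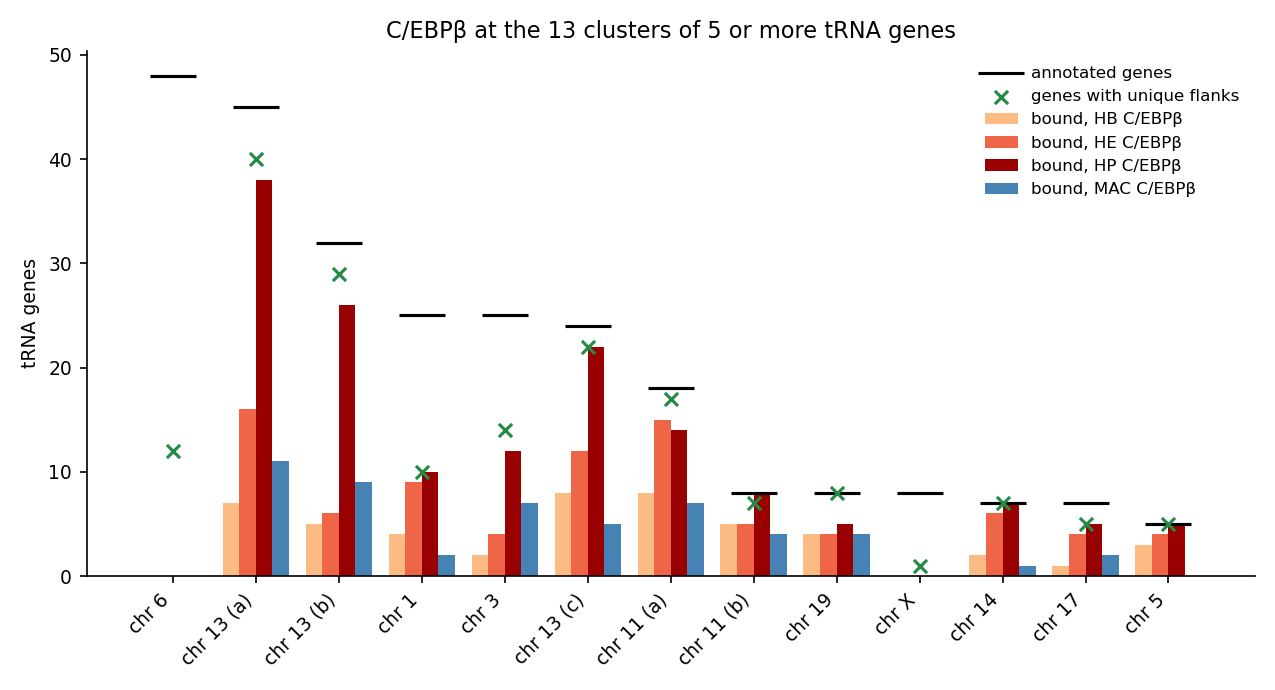
For each of the 13 clusters of 5 or more tRNA genes, labelled by chromosome, coloured bars count the genes bound in the HB, HE, HP and MAC C/EBPβ lists, a black line the annotated genes and a cross those with at least 90% unique words in their flanks. The chromosome 6 cluster of 48 genes and the X chromosome cluster have no bar, and on chromosome 13 (a) the HP bar stands at 38 beside a cross at 40.

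Outside the Cys genes, the internal promoter cores had similar shares in bound and unbound genes, and the terminator and introns less similar ones. Among 346 nuclear genes of the other amino acids, the B box core was present in 93.3% of the 223 in HP and 87.8% of the 123 not in HP, and the A box core in 34.1% and 27.6%. A run of 4 T within 40 bases after the gene, found in 10.0% of the last 40 bases of RefSeq promoters, was present in 96.4% and 75.6%, and an intron in 20 (8.97%) and 2 (1.63%). Over all nuclear genes, 68.4% (59.1 to 76.7) of those with the A box core were in HP and 51.4% (45.4 to 57.3) of those without it. For the B box core these shares were 57.1% (51.9 to 62.2) and 46.9% (29.1 to 65.3). Nuclear genes without the run were in HP in 8 of 46 cases (17.4%, 7.82 to 31.4) and those with it in 219 of 357 (61.3%, 56.1 to 66.4). Genes with an intron, such as n-TYgta7 and n-TIaat17, were in HP in 20 of 22 cases (90.9%, 70.8 to 98.9), beside 207 of the 381 without one (54.3%, 49.2 to 59.4). In HB the counts were 14 of 22 (63.6%, 40.7 to 82.8) and 76 of 381 (19.9%, 16.1 to 24.3). In HE they were 13 of 22 (59.1%, 36.4 to 79.3) and 128 of 381 (33.6%, 28.9 to 38.6), with overlapping intervals. The MES and MAC intervals lay apart, as in HP and HB. Flank uniqueness moved with these differences, with medians of 100% in the bound and 70.4% in the unbound genes outside Cys, and its part in them was not tested.

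Among genes of other kinds read by RNA polymerase III, the share marked stood above the coding background in HE and was not told apart from it in HP and MAC. Of 10 such genes found in the annotation, 2 were in the HE list (20.0%, 2.52 to 55.6), beside 0.110% of coding genes, an interval that also holds the 33.2% of tRNA genes. They were Rmrp, the RNA of RNase MRP, and Vaultrc5, a vault RNA. In the HP list were also 2, Vaultrc5 and Rn7s2, a 7SL RNA of the signal recognition particle, with the same interval, which holds the 2.65% of coding genes. In MAC C/EBPβ marked Rny1, Rn7s2 and Vaultrc5 (30.0%, 6.67 to 65.2), beside 25.3%, and PU.1 marked 5 (50.0%, 18.7 to 81.3), beside 39.5%. The peaks at Rmrp and Vaultrc5 were centred inside the gene. MES and HB C/EBPβ and the 5 other HP lists marked 0 of the 10, which allows up to 30.8%. Of 61 genes annotated as 5S ribosomal RNA, 0 were in any C/EBPβ list, which allows up to 5.87% in each. The uniqueness of the flanks of these 5S genes was not scored, so its part in the zero was not tested. Of other short RNA genes, HE held 0 of 1330 snoRNA genes (up to 0.277%), 0 of 997 snRNA genes (up to 0.369%) and 1 of 1228 microRNA genes, and HP held 1, 5 and 5. MAC held 47 (3.53%), 35 (3.51%) and 74 (6.03%), beside 25.3% of coding genes.

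Among 29 genes that encode the polymerase III machinery, C/EBPβ had a peak at a start of 0 in MES, HB and HE, which allows up to 11.9% in each, beside coding shares of 1.22%, 0.749% and 0.110%. At each of these stages the interval held the coding share. In HP it marked 2 (6.90%, 0.846 to 22.8), beside 2.65% of coding genes. They were Tbp, the TATA-binding protein, and Polr3e, a subunit of the enzyme, and the peak at Polr3e was one centred inside the tRNA gene n-TLaag4, which lies 180 bp from a start of Polr3e. In MAC it marked 13 of 29 (44.8%, 26.4 to 64.3), among them Brf2 and Bdp1 of TFIIIB and Gtf3a, which binds 5S genes, in a list with 25.3% of all coding genes. PU.1 in MAC marked 19 of 29 (65.5%, 45.7 to 82.1), beside 39.5%, so that both long MAC lists stood above their coding shares.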

How the data were processed

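The deposited files are peak lists, 1 per antibody and stage, whose start and end positions (mm10, GRCm38) were the only values, with no score, height or depth per peak, so the precision is that of the counts of genes. By the study's methods, the authors trimmed reads with CutAdapt, aligned them with Bowtie, kept unique positions, removed duplicates with Picard, called peaks with MACS against the input of each stage and refined them with polyPeak. Bowtie, bedtools and mm10 also stand in the submitters' processing notes. Technical sequencing runs were merged for MES, HE and HP C/EBPβ. The sources used here give no versions of these tools. Reads without a unique position cannot form peaks, which bears on repeated tRNA genes. All peaks were 400 bp wide. Peak positions give no transcript level, so the sorted populations were taken from their labels.

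tRNA genes were read from the RefSeq annotation (GRCm38.p6), and every sequence from its genome. The anticodon comes from the annotation note, which differs from the gene name for 8 Lys and 4 Ile genes and gives none for 10 mitochondrial genes. A gene was bound when a peak centre lay within 500 bp. Shares have exact Clopper-Pearson 95% intervals, and no test was run between single lists. The genes named are the 9 in 5 C/EBPβ lists and, of the 26 in 4, the 3 found in the most of all 14 lists, those in HB or HE but not in HP and MAC, the anticodon with the most HE genes per amino acid, and the 5 largest clusters with the one holding most HE genes, and others are named as examples chosen after their values were seen. Of 11 other polymerase III genes listed, 10 were matched, and 29 of 29 machinery genes. The members and lists were chosen with earlier results of these data known. Alternatives changed the window, the peak rule and the genes counted. Programs (Python 3.11.15, NumPy 2.4.6, SciPy 1.17.1, pandas 2.3.3, Matplotlib 3.10.9) were tested on simulated data.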

Additional observations from a re-analysis of the deposited data

How the results depend on the processing

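Of 137 values under alternative settings, 103 kept within the interval of the value reported, or within 1.5 times it for a count, and in all of the 11 settings for shares the HP C/EBPβ list stood above HE, and HE above MAC, HB, MES and the other HP lists. The intervals of HE and MAC overlapped with a window of 1000 bp, with the nearest gene only, with merged loci (23.1 to 32.5 and 20.0 to 29.1), away from coding starts, without the Cys genes and without genes in other HP lists. With a window of 200 bp, or when a peak had to overlap the gene, which gave the same counts since peaks are 400 bp wide, the shares bound fell to 17.2% for HB, 25.9% for HE, 45.6% for HP and 15.8% for MAC C/EBPβ and to 1.18% for both GFI1B and PU.1 in HP, the part of HE genes found in HP to 82.7% and the part of HP genes found in MAC to 28.4%. MAC then stood below HB, the reverse of the main order. With 1000 bp HB stood at 25.6%, MAC at 31.3%, GFI1B at 5.18%, and these parts at 98.0% and 51.0%. When each peak marked only its nearest tRNA gene, HB was 16.0%, HE 25.2%, HP 44.5%, MAC 20.0% and the part of HE genes in HP 81.3%. Genes with unique flanks, here 292 with mitochondrial ones included, gave HB 28.1%, HE 45.5%, HP 74.0% and MAC 33.6%. Counting genes within 500 bp of each other as 1 locus gave HE 27.6%. Away from coding starts by over 2000 bp, MES fell to 1.34% and GATA2 in HP to 0. Leaving out the Cys genes, an alternative chosen after seeing the data, raised HP to 60.6%. The counts of anticodons and clusters with a gene bound in HE stayed within 1.5 times under every setting.

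No paired analysis was possible because each factor and stage had 1 list. A stricter threshold of the authors could not be tried, since the lists carry no score. Depth and replicate error are unknown for every list. For a gene with wholly unique flanks and no peak, little binding and a strict threshold cannot be told apart, and for a gene with repeated flanks neither can be told apart from reads without a unique position.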
